A study of Homo sapiens with 12 samples.

Results

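The ligands of the HER receptor family were examined in SKBR-3 cells by RNAseq. The 9 genes were taken by symbol, AREG, EREG, HBEGF, TGFA, BTC, EGF, NRG1, NRG2 and NRG4, out of 20531 genes listed in the deposited files. SKBR-3 is an established breast carcinoma line with amplified HER2 (ERBB2). Cells carried a non-targeting (NT) siRNA control pool or a FOXA1 siRNA pool and then received DMSO, the solvent control, or 300 nM lapatinib for 24 h, with 3 replicates in each of the 4 groups (NT siRNA with DMSO, NT siRNA with lapatinib, FOXA1 siRNA with DMSO, FOXA1 siRNA with lapatinib). Lapatinib is a small-molecule inhibitor of the EGFR and HER2 kinases, and FOXA1 is a forkhead pioneer transcription factor of luminal cells. All groups thus carried an siRNA pool, no untransfected cells were analysed here, and the cells grew in medium with serum. The labels place the siRNA 48 h before the drug, whereas the methods of the study give a shorter interval.

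EGF family ligands are made as membrane-anchored precursors, and sheddases of the ADAM family release the soluble growth factor. EGF, amphiregulin (AREG), TGF-alpha (TGFA) and epigen (EPGN) bind EGFR, and heparin-binding EGF (HBEGF), betacellulin (BTC) and epiregulin (EREG) bind EGFR and HER4 (ERBB4). Of the neuregulins in the set, NRG1 and NRG2 bind HER3 (ERBB3) and HER4, and NRG4 binds HER4. HER2 has no known ligand of its own and acts as the dimerization partner of the others.

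Expected counts, the estimated reads per gene, summed to between 25749578 and 32271850 in a library. FOXA1, the siRNA target, had between 1160 and 2384 normalized counts in the 6 libraries with FOXA1 siRNA and between 8308 and 13180 in the 6 with NT siRNA. Normalized counts are expected counts brought to a common depth with TMM factors, and TPM is a level per transcript length. Of the 7 luminal HER2-amplified markers, CDH1 stood at a mean of at most 0.183 TPM in any group, and the summed level of the 7 was between 12361 and 19428 TPM. ESR1 and PGR together reached at most 0.98 TPM, basal markers 2.1, endothelial markers 0.7 and fibroblast markers 5.78 TPM. The 3 leukocyte markers summed to between 15.1 and 42.8 TPM, nearly all of it CD68, with PTPRC and CD3E at group means of at most 0.143 and 0.313 TPM. The basal keratins KRT5 and KRT14 were called higher after FOXA1 siRNA in DMSO and in lapatinib. KRT14 rested on 0 to 1.07 counts per library with NT siRNA and 1.05 to 11.25 with FOXA1 siRNA. TP63, the third basal marker, was not called after FOXA1 siRNA in DMSO (log2 fold change -0.19) and had 1 to 4 counts in lapatinib. With NT siRNA, lapatinib lowered TP63 3.14-fold. The 3 basal markers summed to 0.05 to 0.47 TPM with NT siRNA and 0.83 to 2.1 TPM with FOXA1 siRNA. CD68 rose with lapatinib 1.85-fold with NT siRNA and 1.57-fold with FOXA1 siRNA. EPCAM fell 1.55-fold with lapatinib in NT siRNA cells and 1.34-fold with FOXA1 siRNA in DMSO. Other luminal markers rose with lapatinib, namely CDH1, HER2 and GRB7 with NT siRNA (2.86-, 2.01- and 4.33-fold). HER2 and GRB7 also rose with lapatinib in FOXA1 siRNA cells (1.6- and 3.94-fold), where EPCAM fell 1.09-fold. FOXA1 siRNA lowered 4 of 6 tested luminal markers in DMSO and 6 of 7 in lapatinib, and raised none. These markers thus moved with the same treatments as the ligands. The part of these markers or of other cells in the ligand values was not tested. In such bulk samples, fewer cells that express a gene and less RNA per cell cannot be told apart.

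Of the 9 ligands, 5 reached 10 counts in at least 1 library and were tested in every comparison, namely EGF, NRG2, BTC, AREG and HBEGF. NRG1, the neuregulin that binds HER3 and HER4, was not detected, with 0 counts in all 12 libraries. At this depth a count of 0 allows up to 3 counts, which is 0.093 to 0.117 CPM (counts scaled by the library total), and such limits cover counting error only. EREG, TGFA and NRG4 were seen at 0 to 8, 1 to 8 and 0 to 7 counts per library and stayed under the minimum of 10 counts. NRG3, which is outside the 9 genes and also binds HER4, had 1 count in 1 library and 0 in the other 11.

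The ligand genes lie on several chromosomes (RefSeq, GRCh38.p14). EPGN (chr4:74308470-74316789), EREG (chr4:74365145-74388749), AREG (chr4:74445136-74455005) and BTC (chr4:74744759-74794523) are neighbours, and they are the 4 protein-coding genes that RefSeq lists in this span of 486.1 kb. EGF itself lies apart on the same chromosome (chr4:109912883-110013766). NRG2 (chr5:139846781-140043299) and HBEGF (chr5:140332843-140346603) are separated by 289.5 kb. TGFA lies at chr2:70447284-70553826 and NRG4 at chr15:75935393-76060240.

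The upstream sequences of the 4 neighbours and of EGF are shown because EPGN and AREG, which lie close together, changed in opposite directions after FOXA1 siRNA in DMSO, and EGF had the highest level of the 9 ligands. Each is the 250 bases before the RefSeq start, read 5′ to 3′ on the strand of the gene, with matches to 4 motifs in capitals. The windows are chr4:74308220-74308469 (plus strand), chr4:74364895-74365144 (plus), chr4:74444886-74445135 (plus), chr4:74794524-74794773 (minus) and chr4:109912633-109912882 (plus).
EPGN: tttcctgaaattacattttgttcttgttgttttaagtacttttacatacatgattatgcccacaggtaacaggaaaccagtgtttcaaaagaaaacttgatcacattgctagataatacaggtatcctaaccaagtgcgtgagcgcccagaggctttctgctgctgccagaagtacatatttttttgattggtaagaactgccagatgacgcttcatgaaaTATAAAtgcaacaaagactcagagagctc
EREG: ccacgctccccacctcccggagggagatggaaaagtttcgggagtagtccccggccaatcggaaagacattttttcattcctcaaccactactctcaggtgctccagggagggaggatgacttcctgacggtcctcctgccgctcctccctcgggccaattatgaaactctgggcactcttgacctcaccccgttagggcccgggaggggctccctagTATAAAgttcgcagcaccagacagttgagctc
AREG: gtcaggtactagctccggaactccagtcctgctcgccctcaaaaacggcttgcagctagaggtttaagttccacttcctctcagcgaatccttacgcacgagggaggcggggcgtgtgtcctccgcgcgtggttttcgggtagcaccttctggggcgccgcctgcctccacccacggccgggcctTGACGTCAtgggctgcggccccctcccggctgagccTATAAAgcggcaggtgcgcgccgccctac
BTC: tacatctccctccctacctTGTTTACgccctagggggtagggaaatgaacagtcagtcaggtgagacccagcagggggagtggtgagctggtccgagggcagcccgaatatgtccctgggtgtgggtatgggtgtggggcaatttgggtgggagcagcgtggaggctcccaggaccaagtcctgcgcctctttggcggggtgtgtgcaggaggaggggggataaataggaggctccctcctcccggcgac
EGF: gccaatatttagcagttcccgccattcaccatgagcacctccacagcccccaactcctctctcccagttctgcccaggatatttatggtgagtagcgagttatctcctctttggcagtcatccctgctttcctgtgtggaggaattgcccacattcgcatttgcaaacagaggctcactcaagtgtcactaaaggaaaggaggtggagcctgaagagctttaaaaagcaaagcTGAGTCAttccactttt

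Both strands were searched for a forkhead motif (GTAAACA or GTCAACA), an AP-1 motif (TGAGTCA), a cyclic AMP response element (TGACGTCA) and TATAAA. Of 35116 RefSeq promoter windows of the same length, 4.84%, 4.2%, 1.65% and 10.7% held them, respectively. EPGN, EREG and AREG each held TATAAA, starting 29, 32 and 29 bases before the start. AREG also held TGACGTCA 65 bases before its start, EGF held TGAGTCA 17 bases before its start, and BTC held the forkhead motif on the opposite strand 231 bases before its start. The NRG4 window lies before a RefSeq start inside the gene body and held TATAAA 8 bases before that start. No match was found in the window of HBEGF or in the 2 windows each of NRG2 and TGFA. These matches describe the letters only.

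EGF was the most abundant of the 9 ligands in every group on the TPM scale. Its level per library was 6.34, 7.42 and 7.49 TPM (replicates 1 to 3) with NT siRNA and DMSO and 15.9, 16.01 and 17.76 TPM with NT siRNA and lapatinib. FOXA1 siRNA libraries held 8.44, 8.31 and 9.96 TPM in DMSO and 18.01, 19.88 and 21.71 TPM in lapatinib. None of the other 8 ligands reached the lowest EGF value of its group. In NT siRNA cells in DMSO, the order by mean TPM was EGF, AREG (2.17 ± 0.48, SD, n = 3), HBEGF (1.81 ± 0.32), BTC (1.25 ± 0.14) and NRG2 (1.14 ± 0.72). AREG overlapped HBEGF there, and NRG2, at 0.62, 1.96 and 0.84 TPM, overlapped BTC, HBEGF and AREG. NRG2 stood in the second place in the other 3 groups, at 2.71 ± 0.84, 2.99 ± 0.95 and 3.74 ± 0.99 TPM (SD, n = 3). It overlapped the next ligand in 2 of them and was clear of BTC (2.22 ± 0.31 TPM) with FOXA1 siRNA and lapatinib. NRG4 had a mean of 0.19 to 0.40 TPM across the groups, and EREG and TGFA were at or below 0.12 TPM in every library.

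Summed over the 9 ligands, the level was 13.9 ± 1.45 TPM with NT siRNA and DMSO, 23.7 ± 0.14 with NT siRNA and lapatinib, then 16.9 ± 0.78 with FOXA1 siRNA and DMSO and 28.1 ± 2.5 with FOXA1 siRNA and lapatinib (SD, n = 3 each). Over these 9 genes, no DMSO library reached the sum of a lapatinib library. EGF held 51.0% ± 0.72 and 52.8% ± 3.98 of the sum in DMSO and 70.0% ± 4.76 and 70.7% ± 2.01 in lapatinib, with NT and FOXA1 siRNA in turn. HBEGF went from 12.95% ± 1.35 to 1.71% ± 0.50 of the sum with lapatinib in NT siRNA cells and from 13.3% ± 2.15 to 3.52% ± 0.43 in FOXA1 siRNA cells. The share of AREG was 15.7% ± 3.83 in NT siRNA cells in DMSO and 3.38% ± 1.0 to 5.91% ± 3.28 in the other groups. These shares are descriptions of mRNA levels and carry no test. The sum leaves out EPGN, an EGFR ligand outside the 9 genes. In DMSO, cells with FOXA1 siRNA held 10.9 to 13.31 TPM of EPGN. Lapatinib-treated cells with the control pool held 0.31 to 0.81 TPM. Counting EPGN would place the former libraries above the latter, so the separation by drug holds for the 9 genes only.

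**Figure D1:**
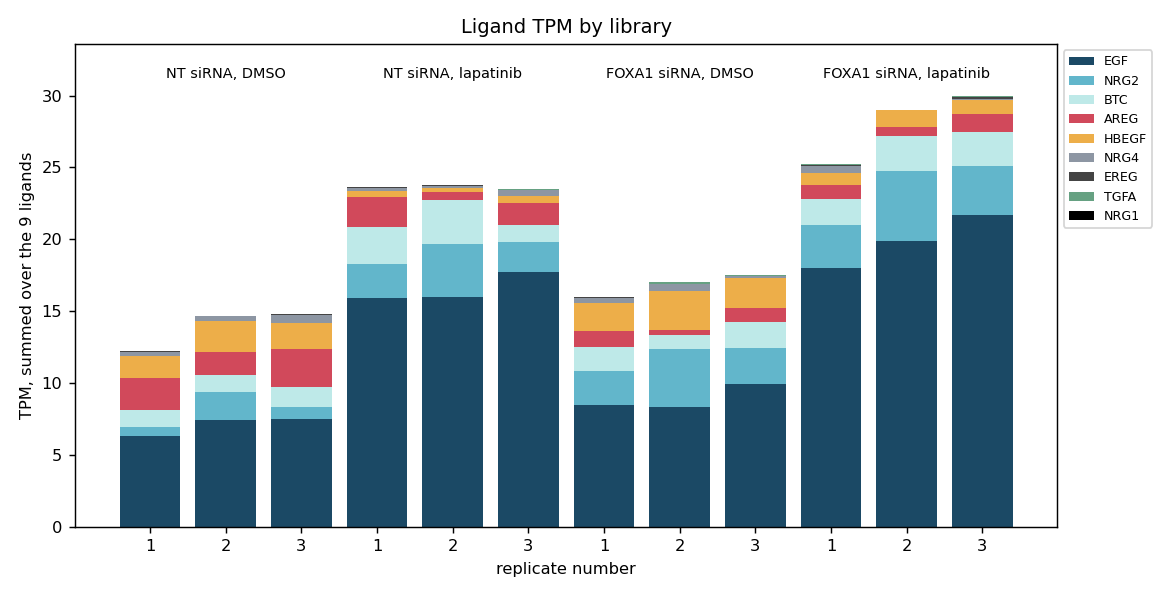
Level of the ligands in each of the 12 libraries, as TPM stacked over the 9 genes (y axis), for replicates 1 to 3 of each group (x axis). The 6 lapatinib bars, at 23.5 to 30.0 TPM, stand above the 6 DMSO bars, at 12.2 to 17.6 TPM, and the EGF segment is the tallest in every bar. EPGN, outside the 9 genes, is not in the bars.

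Changes were tested by edgeR's quasi-likelihood test with p adjusted by Benjamini-Hochberg over all genes tested, and a gene was called at an adjusted p under 0.05. Lapatinib with NT siRNA raised 2 of the 5 tested ligands (EGF and NRG2), where 30.5% of all tested genes were higher, and lowered 1 (HBEGF), where 29.2% were lower. Lapatinib with FOXA1 siRNA raised 1 (EGF, background 29%) and lowered 1 (HBEGF, background 29.1%). FOXA1 siRNA in DMSO raised 2 (NRG2 and EGF, background 21.9%) and lowered 1 (AREG, background 21.3%). In lapatinib it raised 2 (HBEGF and EGF, background 22.7%) and lowered none, where 22.2% of genes were lower. At an unadjusted p under 0.05, and with DESeq2, 0 ligands were lower there. Of all 13727 genes tested there, 7202 had an unadjusted p under 0.05 in either direction, and DESeq2 called 2890 as lower. No ligand had a called interaction of siRNA and drug, for which 3.99% of genes were positive and 3.2% negative. At an unadjusted p under 0.05, 1 ligand (HBEGF) showed an interaction, and so did 3117 of all 14012 tested genes. DESeq2 called 0 ligands, where it called 821 of these genes as positive and 630 as negative. The fit with a replicate block, which adds the replicate number to the model, called 2 ligands (HBEGF positive and NRG2 negative). In that fit 11.1% of genes were positive and 9.22% negative. The block also called BTC and NRG2 as higher after lapatinib with FOXA1 siRNA (background with the block 34.5%) and NRG2 as higher after FOXA1 siRNA in lapatinib (30.6%). The shares of the 5 ligands were not tested against those of all genes. Comparisons that share a group, such as those in which NT siRNA with DMSO is the control, share its libraries.

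**Figure D2:**
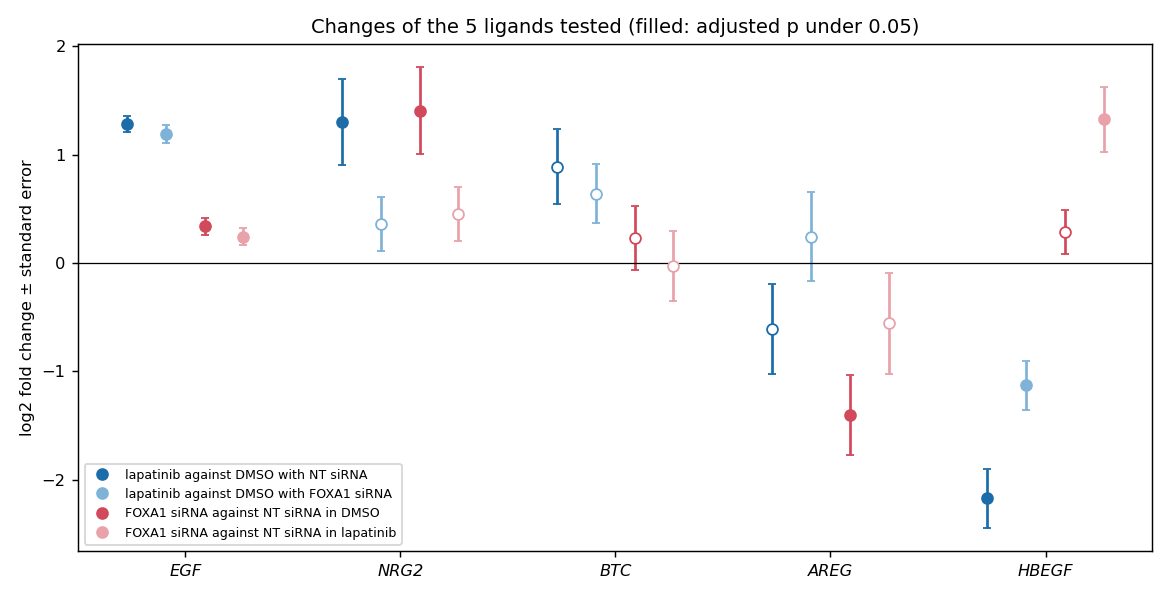
Log2 fold changes of the 5 tested ligands (y axis) with standard errors as bars, in the 4 comparisons given by colour, with filled points for an adjusted p under 0.05. EGF points lie above 0 in all 4 comparisons, HBEGF lies below 0 in both lapatinib comparisons and at 1.33 for FOXA1 siRNA in lapatinib, and the 4 BTC points are open.

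Among the ligands of EGFR, EGF moved in one direction in all comparisons. Its normalized counts were 482.7, 522.6 and 502.4 with NT siRNA and DMSO, 1128, 1206 and 1273 with NT siRNA and lapatinib, 611.5, 598.3 and 679.6 with FOXA1 siRNA and DMSO and 1320, 1404 and 1571 with FOXA1 siRNA and lapatinib. The 4 groups did not overlap in any of the 4 comparisons, and the lapatinib groups stood highest. Lapatinib raised EGF 2.43-fold with NT siRNA (log2 fold change 1.28, standard error 0.075, adjusted p = 5.51e-06) and 2.29-fold with FOXA1 siRNA (log2 fold change 1.19, standard error 0.08, adjusted p = 1.35e-05). Between same-numbered libraries the lapatinib rise was 2.34-, 2.31- and 2.53-fold with NT siRNA and 2.16-, 2.35- and 2.31-fold with FOXA1 siRNA. The difference of the responses was -0.07 on the log2 scale (standard error 0.11, adjusted p = 0.77), which is within the error.

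FOXA1 siRNA raised EGF by less, 1.26-fold in DMSO (log2 fold change 0.34, standard error 0.08, adjusted p = 0.0095) and 1.18-fold in lapatinib (log2 fold change 0.24, standard error 0.08, adjusted p = 0.0346). The rise was seen in 3 of 3 same-numbered pairs in both media. The call in lapatinib was lost without NT siRNA with lapatinib replicate 1 (adjusted p = 0.113) or 2 (0.0571), or without FOXA1 siRNA with lapatinib replicate 2 (0.0574) or 3 (0.11), in edgeR's quasi-likelihood test. It was also lost without replicate 2 of every group (0.26, adjusted p = 0.0514), an alternative chosen with the values known. Over the fits that left out a library, the log2 fold change stayed between 0.18 and 0.29.

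**Figure D3:**
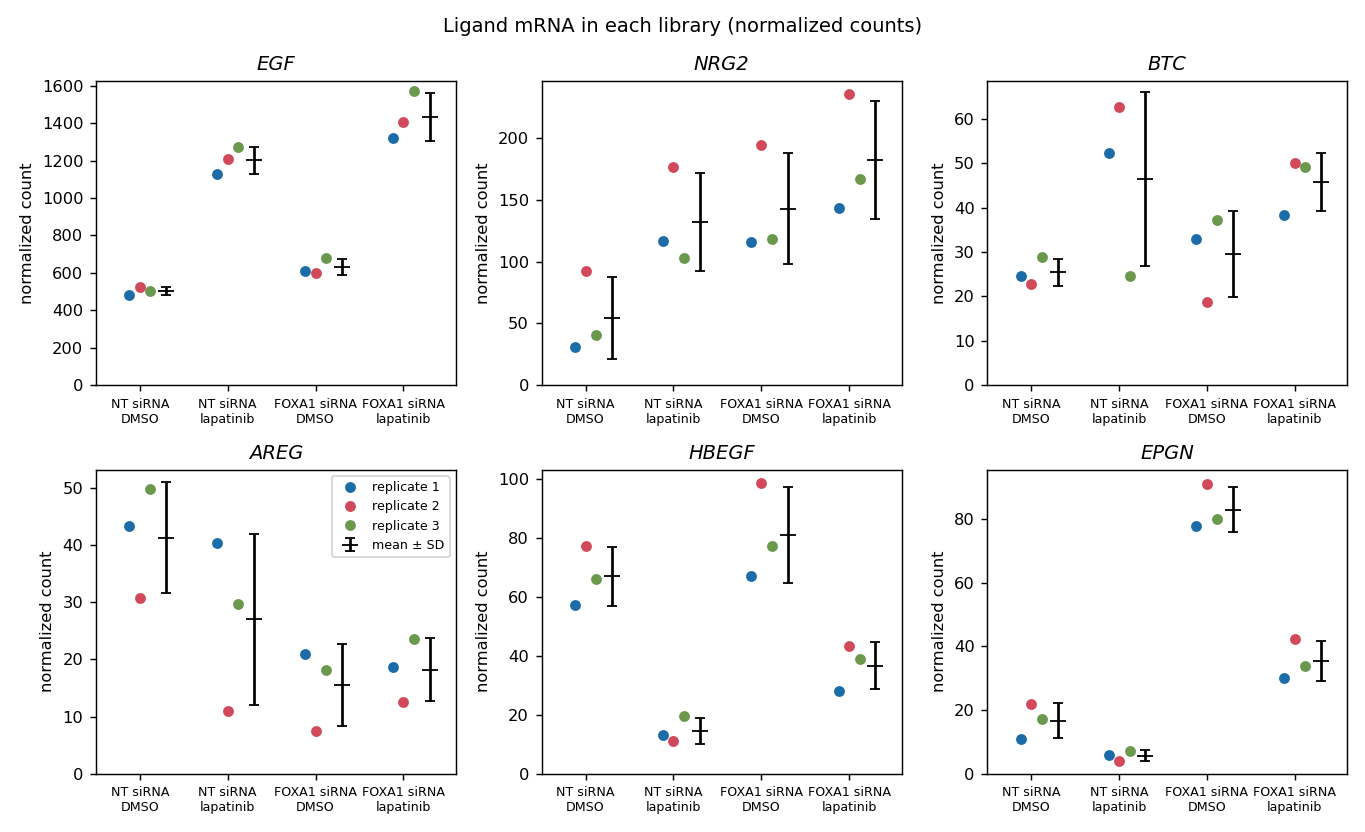
Normalized counts (y axes, each from 0) of EGF, NRG2, BTC, AREG, HBEGF and EPGN in the 4 groups (x axes), with a coloured point per library by replicate number and the mean ± SD in black (n = 3). EGF and HBEGF separate by drug within each siRNA, and replicate 2 is the highest NRG2 point and the lowest AREG point in every group.

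AREG, an EGFR ligand that mediates estrogen-driven growth of the mammary ducts, had 44, 31 and 52 expected counts (replicates 1 to 3) with NT siRNA and DMSO and 21, 8 and 19 with FOXA1 siRNA and DMSO. In lapatinib it had 34, 11 and 29 counts with NT siRNA and 18, 13 and 23 with FOXA1 siRNA. The 3 libraries with FOXA1 siRNA and DMSO were all below those with NT siRNA and DMSO, whereas the groups overlapped in the other 3 comparisons. FOXA1 siRNA lowered AREG 2.64-fold in DMSO (log2 fold change -1.40, standard error 0.37, adjusted p = 0.0162). Without NT siRNA with DMSO replicate 3 the log2 fold change was -1.25 and the call was lost (adjusted p = 0.059). In lapatinib the difference was -0.56 (standard error 0.47, adjusted p = 0.364), and it was called only without NT siRNA with lapatinib replicate 2 (-0.95, adjusted p = 0.0466). The lapatinib change of AREG was -0.61 with NT siRNA (standard error 0.42, adjusted p = 0.239), with a lower value in 3 of 3 same-numbered pairs. With FOXA1 siRNA it was 0.24 (standard error 0.41, adjusted p = 0.638), and the interaction was 0.87 (standard error 0.64, adjusted p = 0.484). The files hold no row for AREGB, a near-identical copy of AREG in older annotations.

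TGFA, the other EGFR ligand of the set, had 2, 2 and 1 counts with NT siRNA and DMSO and 3, 8 and 6 with FOXA1 siRNA and DMSO. These groups did not overlap, but the values are near the limit of detection. Fitted without the count minimum, it differed by 1.67 on the log2 scale (standard error 0.63, adjusted p = 0.0723) and was not called. In lapatinib TGFA had 2, 1 and 2 counts with NT siRNA and 3, 1 and 4 with FOXA1 siRNA, which overlap.

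EPGN, an EGFR ligand outside the 9 genes but part of the family, was detected. It had 11, 22 and 18 counts with NT siRNA and DMSO, 5, 4 and 7 with NT siRNA and lapatinib, 78, 98 and 84 with FOXA1 siRNA and DMSO and 29, 44 and 33 with FOXA1 siRNA and lapatinib. No pair of groups compared overlapped. FOXA1 siRNA raised EPGN 5.01-fold in DMSO (adjusted p = 0.000267) and 6.09-fold in lapatinib (adjusted p = 0.000362). Lapatinib lowered it 2.85-fold with NT siRNA (adjusted p = 0.0144) and 2.33-fold with FOXA1 siRNA (adjusted p = 0.000639). With FOXA1 siRNA and DMSO, EPGN reached 12.2 ± 1.23 TPM (SD, n = 3), above the 8.90 ± 0.92 TPM of EGF. The lowest EPGN library there, at 10.9 TPM, exceeded the highest EGF library, at 9.96 TPM.

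EPGN and AREG, neighbours on chromosome 4, thus moved in opposite directions after FOXA1 siRNA in DMSO, with log2 fold changes of 2.32 and -1.40 (standard errors 0.25 and 0.37). EREG between them stayed under the count minimum, and BTC at the other end of the span changed by 0.23 (standard error 0.29, adjusted p = 0.565).

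**Figure D4:**
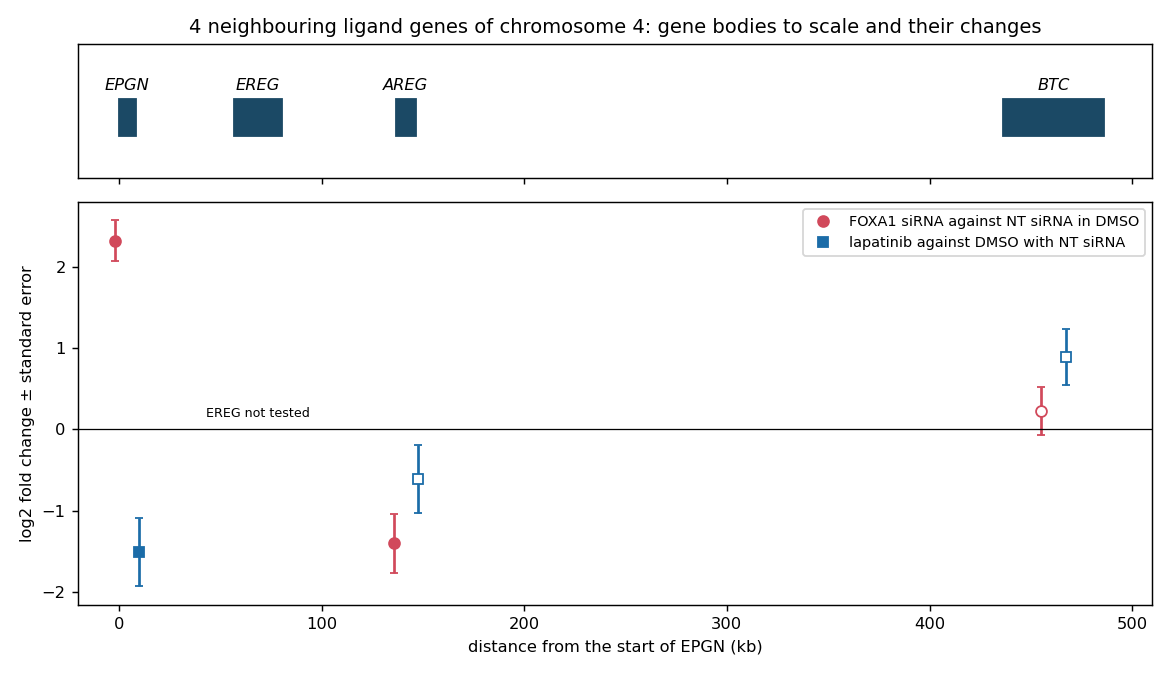
Gene bodies of EPGN, EREG, AREG and BTC to scale (top, distance from the start of EPGN in kb) and their log2 fold changes with standard errors (bottom) after FOXA1 siRNA in DMSO (circles) and after lapatinib with NT siRNA (squares), filled for an adjusted p under 0.05. After FOXA1 siRNA, EPGN lies at 2.32 and AREG at -1.40, and EREG was not tested.

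Among the ligands of both EGFR and HER4, HBEGF, a growth factor made as a membrane-anchored precursor that binds heparin, fell with lapatinib. Its normalized counts were 57.1, 77.3 and 66.2 with NT siRNA and DMSO and 13.1, 10.9 and 19.5 with NT siRNA and lapatinib. The latter 3 libraries held 11, 11 and 19 expected counts. The FOXA1 siRNA libraries held 66.95, 98.6 and 77.1 in DMSO and 27.9, 43.25 and 38.9 in lapatinib. The lapatinib libraries were each below every DMSO library, and the 3 lowest values were those of NT siRNA with lapatinib. Lapatinib lowered HBEGF 4.51-fold with NT siRNA (log2 fold change -2.17, standard error 0.27, adjusted p = 0.000209) and 2.19-fold with FOXA1 siRNA (log2 fold change -1.13, standard error 0.23, adjusted p = 0.0029). FOXA1 siRNA raised HBEGF 2.5-fold in lapatinib (log2 fold change 1.33, standard error 0.30, adjusted p = 0.00817). In DMSO the difference was 0.29 (standard error 0.20, adjusted p = 0.286), and the groups overlapped. Each of these 3 calls was kept whichever of its 6 libraries was left out.

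The fall of HBEGF with lapatinib was smaller with FOXA1 siRNA by 1.06 on the log2 scale (standard error 0.36, unadjusted p = 0.0119 in edgeR's quasi-likelihood test), which was not called after adjustment (adjusted p = 0.101). With the replicate block the difference was 1.06 (standard error 0.29) and was called (adjusted p = 0.0219). Between same-numbered libraries, HBEGF with lapatinib was at 0.229, 0.141 and 0.295 of its DMSO level with NT siRNA and at 0.417, 0.438 and 0.504 with FOXA1 siRNA.

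BTC had 25, 23 and 30 counts with NT siRNA and DMSO, 44, 63 and 24 with NT siRNA and lapatinib, 33, 20 and 39 with FOXA1 siRNA and DMSO and 37, 52 and 48 with FOXA1 siRNA and lapatinib. Replicate 3 of NT siRNA with lapatinib lay within the DMSO range, and the other 2 libraries of its group were above it. The lapatinib change was 0.89 with NT siRNA (standard error 0.35, adjusted p = 0.0547) and 0.64 with FOXA1 siRNA (standard error 0.27, adjusted p = 0.075), and neither was called. The first was called without replicate 3 of NT siRNA with lapatinib (1.20, adjusted p = 0.00536) and with all 12 samples in one model (0.87, adjusted p = 0.0384). The second was called with the replicate block (0.66, adjusted p = 0.0456), and in normalized counts the lapatinib group did not overlap the DMSO group there. FOXA1 siRNA changed BTC by 0.23 in DMSO and -0.03 in lapatinib (adjusted p = 0.565 and 0.954).

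EREG, the third ligand of this kind, had 4, 0 and 5 counts with NT siRNA and DMSO, 2, 5 and 1 with NT siRNA and lapatinib, 4 in each library with FOXA1 siRNA and DMSO, and 8, 4 and 6 with FOXA1 siRNA and lapatinib. All groups overlapped, and at this depth a difference was not detectable.

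Of the neuregulins, NRG2 was the only one with enough counts to be tested. It had 31, 93 and 42 counts (replicates 1 to 3) with NT siRNA and DMSO, 98, 178 and 100 with NT siRNA and lapatinib, 116, 209 and 124 with FOXA1 siRNA and DMSO and 139, 245 and 163 with FOXA1 siRNA and lapatinib. Replicate 2 was the highest of its group in all 4 groups. The libraries with NT siRNA and DMSO were below those of each of the other groups, while the latter overlapped one another. In same-numbered libraries NRG2 was higher in 3 of 3 pairs in each of the 4 comparisons.

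Lapatinib with NT siRNA raised NRG2 2.46-fold (log2 fold change 1.30, standard error 0.40, adjusted p = 0.0206), and FOXA1 siRNA in DMSO raised it 2.65-fold (log2 fold change 1.41, standard error 0.40, adjusted p = 0.0236). Both calls depended on single libraries in the fits without the replicate block. With the block the log2 fold changes were 1.35 (standard error 0.21, adjusted p = 0.000853) and 1.45 (standard error 0.17, adjusted p = 5.03e-05), and both were called. The lapatinib call was lost without NT siRNA with DMSO replicate 1 (adjusted p = 0.0612) or 3 (0.0711) or without NT siRNA with lapatinib replicate 2 (0.0645). The FOXA1 siRNA call was lost without NT siRNA with DMSO replicate 1 (0.0699) or 3 (0.082) or without FOXA1 siRNA with DMSO replicate 2 (0.0683). Left without a library, the log2 fold changes were between 1.01 and 1.90 and between 1.11 and 2.03, respectively. Without replicate 2 of every group they were 1.63 (adjusted p = 8.35e-05) and 1.73 (adjusted p = 6.85e-05), an alternative chosen after the values were seen.

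Neither of the other 2 NRG2 changes was called. Lapatinib with FOXA1 siRNA gave 0.36 (standard error 0.25, adjusted p = 0.248), and FOXA1 siRNA in lapatinib gave 0.45 (standard error 0.25, adjusted p = 0.172). With the replicate block both were called, at 0.36 (standard error 0.10, adjusted p = 0.0102) and 0.46 (standard error 0.11, adjusted p = 0.00394). They were also called without FOXA1 siRNA with DMSO replicate 2 (0.65, adjusted p = 0.0367) and without NT siRNA with lapatinib replicate 2 (0.73, adjusted p = 0.0317), respectively. Without replicate 2 of every group they were 0.41 (adjusted p = 0.0386) and 0.50 (adjusted p = 0.0292). The interaction was -0.94 (standard error 0.51, adjusted p = 0.318), and with the replicate block it was -0.95 (standard error 0.22, adjusted p = 0.00959). Without replicate 2 of every group it was -1.22 (adjusted p = 0.00714). Between same-numbered libraries, lapatinib raised NRG2 3.82-, 1.92- and 2.55-fold with NT siRNA and 1.24-, 1.21- and 1.41-fold with FOXA1 siRNA.

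NRG4, a ligand of HER4, had 3, 5 and 5 counts with NT siRNA and DMSO, 1, 2 and 5 with NT siRNA and lapatinib, 5, 7 and 2 with FOXA1 siRNA and DMSO and 4, 0 and 1 with FOXA1 siRNA and lapatinib. The groups overlapped in every comparison.

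The genes whose log2 CPM followed a ligand most closely over the 12 libraries were sought for the 3 ligands with the most normalized counts, among 10811 or 10812 genes with a mean of at least 100 normalized counts. They were TUFT1, C15orf62 and CTNND1 for EGF (Pearson r = 0.994 each), PRIC285, RASD2 and TMPRSS4 for NRG2 (0.988, 0.97 and 0.961) and UCHL5, SRXN1 and C12orf24 for HBEGF (0.97, 0.97 and 0.969). The points share the 4 groups and their libraries, so these values describe likeness of pattern only.

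The receptors of these ligands differed widely in level. In NT siRNA cells in DMSO, HER2 stood at 3073 TPM, HER3 at 169, EGFR at 71.0 and HER4 at 0.50 TPM (means, n = 3), against 7.08 TPM for EGF. Lapatinib raised all 4 receptors with both siRNAs, by log2 fold changes of 0.42 to 1.36 with NT siRNA and 0.62 to 1.09 with FOXA1 siRNA. FOXA1 siRNA lowered HER3, the neuregulin receptor, by log2 fold changes of -1.21 in DMSO and -1.36 in lapatinib, while NRG2 was higher in these comparisons by 1.41 and, not called, 0.45. EGFR rose by 0.23 and 0.42, beside rises of EGF of 0.34 and 0.24. HER4 was not called in either (0.02 and -0.39). HER2 was not called in DMSO (-0.11) and fell in lapatinib (-0.45), with a called interaction of -0.31 (adjusted p = 0.0424).

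Of 11 tested sheddases and their regulators, lapatinib raised 6 and lowered 1 with NT siRNA and raised 5 and lowered 3 with FOXA1 siRNA, where 30.5% and 29.2% and then 29% and 29.1% of all genes were higher and lower. FOXA1 siRNA raised 5 and lowered 1 in DMSO and raised 1 and lowered 2 in lapatinib, where 21.9% and 21.3% and then 22.7% and 22.2% of all genes were higher and lower. ADAM9, a membrane metalloprotease, rose in all 4 comparisons, by log2 fold changes of 0.42 and 0.46 with lapatinib and 0.47 and 0.50 with FOXA1 siRNA. BACE1, a membrane aspartyl protease that cleaves neuregulin, rose with lapatinib by 0.95 and 0.79. RHBDF2, an inactive rhomboid that carries ADAM17 to the cell surface, fell with lapatinib (-0.68 and -0.41). ADAM15 fell with FOXA1 siRNA (-0.67 and -0.66). FURIN, the convertase that matures ADAM proteases, rose with lapatinib in NT siRNA cells (0.23) and fell with lapatinib in FOXA1 siRNA cells (-0.47), with a called interaction of -0.68 (standard error 0.08, adjusted p = 0.000598).

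Of 12 inhibitors of the receptors, lapatinib raised 5 and lowered 3 with NT siRNA and raised 4 and lowered 3 with FOXA1 siRNA. FOXA1 siRNA raised 3 and lowered 3 in DMSO and raised 2 and lowered 5 in lapatinib. For these 4 comparisons the shares of all genes were 30.5% and 29.2%, 29% and 29.1%, 21.9% and 21.3% and 22.7% and 22.2%, higher and lower in turn. CBLB, a ubiquitin ligase of activated receptors, rose with lapatinib by 1.25 and 0.98. ERRFI1, which binds and blocks the EGFR kinase, fell with lapatinib (-0.77 and -1.07) and rose with FOXA1 siRNA by 1.34 and 1.03.

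Of 14 tested genes induced by the ERK pathway, lapatinib lowered 10 and raised 1 with NT siRNA, with a median log2 fold change of -1.24 against 0.03 over all genes, of which 29.2% were lower. With FOXA1 siRNA it lowered 12 and the other 2 were not called, with a median of -1.06 against 0.01 over all genes, of which 29.1% were lower. FOSL1, an AP-1 subunit, went from 19 to 22 counts in DMSO to 0 to 1 in lapatinib with NT siRNA and from 14 to 17 to 2 to 4 counts with FOXA1 siRNA. ETV4, an ETS factor, fell by log2 fold changes of -3.99 and -4.56, and SPRY4, a feedback inhibitor of the pathway, by -4.17 and -4.00. FOXA1 siRNA raised 3 and lowered 4 of 14 in DMSO and raised 3 and lowered 3 of 13 in lapatinib, against 21.9% higher and 21.3% lower and then 22.7% and 22.2% of all genes. SPRY2, another feedback inhibitor, rose by 1.15 and 2.04 after FOXA1 siRNA, and CCND1, the G1 cyclin, fell (-1.22 and -1.38).

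Ligands of other receptor tyrosine kinases were set beside the 9 genes. Lapatinib raised 3 and lowered 3 of 14 tested with NT siRNA and of 12 tested with FOXA1 siRNA, with medians of -0.05 and -0.07, where those of the 5 HER ligands were 0.89 and 0.36. Each of the latter is the value of 1 ligand that was not called, BTC and NRG2 in turn. The 5 spanned -2.17 to 1.30 and -1.13 to 1.19, so these medians show no common rise. Of all genes, 30.5% were higher and 29.2% lower in the first comparison, and 29% and 29.1% in the second. FOXA1 siRNA raised 2 and lowered 4 of 13 in DMSO and raised 3 and lowered 6 of 13 in lapatinib, against 21.9% and 21.3% and then 22.7% and 22.2% of all genes. IGF1, a ligand of the IGF1 receptor, had 0 to 1 counts in DMSO with either siRNA, 11 to 24 with NT siRNA and lapatinib and 1 to 3 with FOXA1 siRNA and lapatinib, and both called changes rest on these counts. EFNB2, an ephrin, was higher with FOXA1 siRNA by 1.06 in DMSO and 1.98 in lapatinib and fell with lapatinib in NT siRNA cells (-1.38). PDGFB, a ligand of PDGF receptors, fell in all 4 comparisons (-0.89 and -0.55 with lapatinib, -1.66 and -1.33 with FOXA1 siRNA). PDGFA, its partner chain, rose with lapatinib by 1.41 and 1.11. The difference between these lists was not tested.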

How the data were processed

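RNAseq libraries of SKBR-3 cells were analysed, 3 for each of 4 groups, with groups and replicate numbers taken from the labels. For every gene and library the authors deposited an expected count, a TPM value and an upper-quartile normalized signal. Their methods give alignment to hg38 with STAR and quantification with Salmon, whereas the labels' tool list names RSEM and DESeq2 1.12.3 and the deposited columns are those of RSEM. The labels name both a stranded and an unstranded library kit, and use of strand in counting is not given in the sources used here, so overlapping and antisense genes are uncertain. Replicates were not pooled, and nothing says that they came from separate cultures, so p-values measure the spread between these samples only. All pairs of replicates differed beyond sampling noise (chi-square per degree of freedom 3.75 to 18.5).

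Expected counts (87.5% to 88.1% whole in a library) were rounded and tested in R 4.3.3 with edgeR 4.0.16 (TMM, glmQLFit and glmQLFTest), each pair of groups on its own 6 libraries and the interaction on all 12. Genes needed at least 10 counts in at least 1 library of the fit. The deposited TPM was used for levels between genes, and the deposited signal only to check the unit. The deposited transcript length was used in an alternative level. Standard errors came from each fold change with its F value, and the procedure was tested on simulated data. The 9 genes, the lists beside them and the motifs were chosen with earlier results of these data known. Named in the text were the 9 genes, the other family ligands, receptors and FOXA1, and from each list some of the genes with the 4 largest called changes in at least 1 comparison, picked among them with values known. Exact permutation tests of 3 against 3 cannot go below p = 0.1 and were not used.

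Alternatives were RLE and upper-quartile scaling, DESeq2 1.42.0, no filter, 10 counts in every sample, 1 model of all samples, a log2 fold minimum of 1, each library left out, replicate 2 of every group left out (added after seeing the data) and the replicate number as a block. The numbers in the labels were taken to pair the samples, since all 18 pairs of same-numbered samples deviated together from their group means (mean r = 0.393, lowest 0.244, across 12170 genes). The highest r of the 36 pairs of different numbers was 0.198. Their mean of -0.185 carries no separate weight, because deviations from a group mean cancel within the group. Coordinates and promoters are those of RefSeq (GRCh38.p14), matched by symbol and Entrez gene ID.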

Additional observations from a re-analysis of the deposited data

Results flagged for a closer look

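HBEGF and NRG2 differed in their lapatinib response between FOXA1 siRNA and NT siRNA cells, by a test of the interaction with the replicate number as a block. For HBEGF the difference was 1.06 on the log2 scale (standard error 0.29, with adjusted p = 0.0219 by edgeR's quasi-likelihood test), a smaller fall with FOXA1 siRNA in 3 of 3 same-numbered pairs. For NRG2 it was -0.95 (standard error 0.22, adjusted p = 0.00959), a smaller rise in 3 of 3 pairs. Without the block neither was called (adjusted p = 0.101 and 0.318). The HBEGF difference was widest in replicate 2. Over the alternatives it ranged from 0.79 to 1.34, and that of NRG2 from -1.55 to -0.65.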

How the results depend on the processing

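Of 372 recomputed ligand changes, 341 kept their direction and side of the threshold, 13 gained and 12 lost a call, and 6 changed sign. The sign changes were of small changes, namely AREG after lapatinib with FOXA1 siRNA (-0.10 without FOXA1 siRNA with DMSO replicate 2, range to 0.516), BTC after FOXA1 siRNA in lapatinib (0.06 and 0.26 without NT siRNA with lapatinib replicates 1 and 2, 0.08 without FOXA1 siRNA with lapatinib replicate 1, 0.20 without replicate 2 of every group, lowest -0.339) and the BTC interaction (0.051 without NT siRNA with lapatinib replicate 2, lowest -0.544). The cause was not tested. In the paired fits with the replicate block, 3 in place of 1 ligands rose with lapatinib in FOXA1 siRNA cells, and 1 positive and 1 negative interaction were called. The block raised the calls over all genes as well, from 29% to 34.5% there and from 3.99% to 11.1% and 3.2% to 9.22% for the interaction. It also called NRG2 after FOXA1 siRNA in lapatinib and changed no other call. Without replicate 2 of every group, 2 ligands rose with lapatinib in FOXA1 siRNA cells, where 4088 of 13597 genes rose. In that setting 1 interaction was negative, where 1092 of 13861 genes were negative. After FOXA1 siRNA in lapatinib, that setting lost EGF (0.26, adjusted p = 0.0514) and gained NRG2 (0.50, adjusted p = 0.0292).

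With 1 library left out, the ligands called as higher numbered 1 to 3 after lapatinib with NT siRNA, 1 to 2 with FOXA1 siRNA, 1 to 2 after FOXA1 siRNA in DMSO and 1 to 2 in lapatinib. Of the 13618 to 13716 genes tested in these fits, 3474 to 4086, 3450 to 3951, 2295 to 3223 and 2410 to 3158 were higher in turn. Those called as lower after FOXA1 siRNA numbered 0 to 1 in DMSO and 0 to 1 in lapatinib, where 2190 to 3136 and 2439 to 3143 of all genes were lower. A log2 fold minimum of 1 left 1 ligand higher after FOXA1 siRNA in DMSO and 1 in lapatinib. The shares of all genes at that minimum were not computed. With 10 counts in every sample, AREG was not tested and 0 ligands were lower in DMSO, where 2828 of 12473 genes were lower. The share of EGF with NT siRNA and DMSO was 51.8% from normalized counts per length. The alternative with AREGB was not run, since no row carries that name. Depth limits EREG, TGFA and NRG4, whose counts stayed under 10 in every library, and AREG and BTC, at 8 to 63. It also limits HBEGF with NT siRNA and lapatinib, at 11, 11 and 19 counts.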
